A study of Mus musculus with 24 samples.

Results

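The 7 genes described here encode proteins through which microglia, the resident macrophages of the brain, sense extracellular nucleotides and lysophospholipids. They are P2ry12, P2ry13, P2ry6, P2rx4, P2rx7, Gpr34 and Entpd1, chosen by name, and all 7 of 7 were found among the 56980 genes of the deposited table and passed the filter on low counts that left 14090 genes. Their levels were followed in 24 RNA sequencing libraries from the brains of 12 mice aged 19 months. The mice were 6 wild type (WT, Grn+/+) and 6 progranulin knockout (GrnKO, Grn-/-) animals, and each genotype had 3 animals labelled male and 3 labelled female. On their shared C57Bl/6J background all of them, controls included, carried the hTfR mu/hu knock-in of the transferrin receptor. CD11b+/CD45+ cells of each brain were split by their autofluorescence in the 488 channel, a measure of lipofuscin, and 1000 low and 1000 high cells were taken. This gave 4 groups of 6 libraries (WT low and high, GrnKO low and high), with both libraries of an animal sharing its number. CD11b and CD45 are also carried by other white blood cells, so the sort alone did not select microglia.

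Cells that are damaged or active release ATP and UTP, and enzymes at the cell surface break these down stepwise. P2RY12 and P2RY13 are G protein-coupled receptors for ADP, and P2RY12 steers microglial processes toward sites of injury. P2RY6 responds to UDP and is tied to phagocytosis, while P2RX4 and P2RX7 are ATP-gated cation channels. P2RX4 resides largely in lysosomes, and P2RX7 opens at high ATP and leads to inflammasome activation. GPR34 is a receptor for lysophosphatidylserine. ENTPD1 (CD39) hydrolyses ATP and ADP to AMP and so removes the ligands of several of these receptors. Grn encodes progranulin, a secreted protein that is processed in lysosomes, where lipofuscin gathers with age.

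The libraries held 12.9 to 46.8 M (mega) counts (median 30.5 M), and each of the 7 genes had between 520 and 120000 counts in every library. Grn ranged from 439 to 1477 CPM (counts per M counts of the scaled library) in WT and from 0.520 to 20.3 CPM in GrnKO, as the genotype labels state. Sex chromosome transcripts opposed the sex label in 12 of 12 animals, so sexes are named here only as labels. Markers of choroid plexus, the tissue that makes cerebrospinal fluid, summed to 20547 to 80029 CPM in 4 libraries and to at most 1925 CPM in the other 20. These 4 were both libraries of WT animal 1 and the low libraries of WT animal 9 and GrnKO animal 8. Mitochondrial counts made up 7.91% and 9.70% of the 2 libraries of WT animal 1, against a median of 2.20%. That animal had the lowest CPM of its group in both bins for P2ry12, P2ry13, P2ry6, P2rx4 and Entpd1. Blocked fits are therefore also given without these 3 animals, and correlations without these 4 libraries.

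The first question was whether cells rich in lipofuscin differed in these genes from lipofuscin-poor cells of the same animals. The fit planned as the main one had no block and called 0 of the 7 genes, and the animal block was planned as an alternative. In the edgeR fit with a fixed block for each animal, 4 of the 7 genes were higher in the high bin over both genotypes: P2rx4, Entpd1, P2ry12 and Gpr34. With the animal as a random block in limma-voom, 2 of these, P2rx4 and Entpd1, were called. P2rx4 and Entpd1 were each about 1.6-fold higher and were above the low library in 12 of 12 animals, while P2ry12 and Gpr34 were each about 1.3-fold higher. P2ry13 leaned the same way without passing the test, and P2ry6 and P2rx7 did not. Calls were made at an adjusted p under 0.05 in edgeR's quasi-likelihood test with Benjamini-Hochberg adjustment over all tested genes. In the blocked fit, 1.53% of all tested genes were called in either direction and 0.745% were called higher. Among the 1421 genes averaging at least 100 CPM, 6.47% were called higher. The median log2 fold change was 0.36 for the 7 genes, 0.04 for all tested genes and 0.15 for genes averaging at least 100 CPM. Without the block, none of the 7 passed (0 of 7, against 1.31% of all tested genes), although 5 of 7 had an unadjusted p under 0.05, as did 11.2% of all tested genes. Without the block, DESeq2 called 2 of them and limma-voom called 1.

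**Figure D1:**
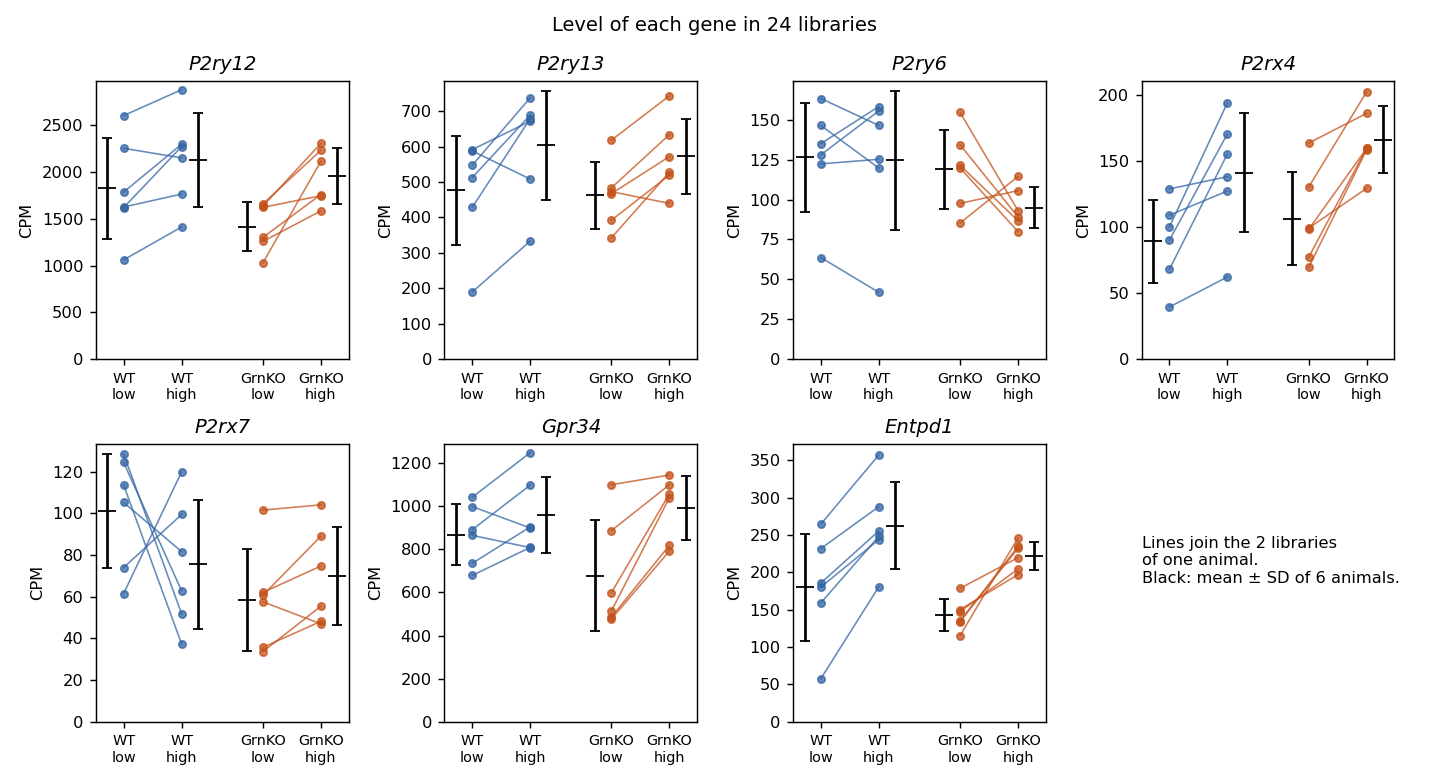
Level of each of the 7 genes in CPM (linear axes from 0) in all 24 libraries, with a line joining both libraries of one animal and the black marks giving the mean and SD of 6 animals. All 12 lines climb from low to high for P2rx4 and Entpd1, and 11 of 12 do for P2ry12, while those of P2ry6 and P2rx7 run in both directions.

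P2rx4, the lysosomal ATP-gated channel, ranged from 39.4 to 129 CPM in WT low (median 94.9) and from 62.1 to 194 CPM in WT high (median 147). In GrnKO it ranged from 69.4 to 163 CPM in the low bin (median 98.6) and from 129 to 202 CPM in the high bin (median 160). The bins overlapped within each genotype as groups, but the high library was above the low library in every animal. The within-animal difference on the log2(CPM + 1) scale averaged 0.68 ± 0.39 (SD, n = 12) and ran from 0.10 to 1.18. The blocked edgeR fit gave a log2 fold change of 0.68 (SE 0.127, adjusted p = 0.00802), and the fit without the block gave 0.66 (SE 0.187, adjusted p = 0.0823). Without animals 1, 8 and 9, the source of the choroid-rich libraries, the blocked estimate was 0.62 with an adjusted p of 0.0513 in edgeR.

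Entpd1, the ectonucleotidase CD39, ranged from 57.6 to 265 CPM in WT low (median 183) and from 181 to 357 CPM in WT high (median 252). In GrnKO it lay between 115 and 179 CPM in the low bin (median 141) and between 197 and 246 CPM in the high bin (median 226). These GrnKO bins did not overlap, and the share of all tested genes with bins apart in this way was not counted. The within-animal difference averaged 0.64 ± 0.39 on the log2(CPM + 1) scale (SD, n = 12) and ran from 0.30 to 1.63. The largest value belonged to WT animal 1. In edgeR the blocked log2 fold change was 0.65 (SE 0.121, adjusted p = 0.00858), and without the block it was 0.59 (SE 0.164, adjusted p = 0.0725). Entpd1 was the 1 gene of the 7 that was still called in the blocked fit without animals 1, 8 and 9. A gene higher in all 12 of 12 animals, as P2rx4 and Entpd1 were, was found among 0.504% of tested genes and 3.73% of genes averaging at least 100 CPM.

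P2ry12, the ADP receptor of resting microglia, ranged from 1061 to 2604 CPM in WT low (median 1706) and from 1412 to 2881 CPM in WT high (median 2212). In GrnKO the range was 1028 to 1659 CPM in the low bin (median 1461) and 1584 to 2306 CPM in the high bin (median 1937). Of 12 animals, 11 had more in the high library, WT animal 7 being the exception, and at least 11 of 12 was reached by 1.70% of tested genes and 9.64% of genes averaging at least 100 CPM. The blocked log2 fold change was 0.36 (SE 0.0832, adjusted p = 0.0377 in edgeR), against 0.35 (SE 0.117, adjusted p = 0.177) without the block. P2ry13, its neighbour on chromosome 3 and a second ADP receptor, had a similar estimate of 0.35 in the blocked fit, but with an adjusted p of 0.0864 in edgeR. Its medians were 530 CPM in WT low (189 to 592), 676 CPM in WT high (333 to 738), 470 CPM in GrnKO low (342 to 619) and 550.1 CPM in GrnKO high (440 to 744). The groups of P2ry13 overlapped throughout, and 10 of 12 animals were higher in the high library.

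Gpr34, the lysophosphatidylserine receptor, ranged from 679 to 1041 CPM in WT low (median 878) and from 808 to 1248 CPM in WT high (median 901). In GrnKO low, 4 of 6 libraries were below every WT low library and 1 was above every one, and the range was 477 to 1100 CPM (median 556). The share of all tested genes with libraries placed in this way was not counted. GrnKO high ranged from 792 to 1145 CPM (median 1049). The high library was the higher one in 6 of 6 GrnKO and 4 of 6 WT animals, with mean log2(CPM + 1) differences of 0.61 ± 0.36 and 0.14 ± 0.21 (SD, n = 6 each). Higher in 6 of 6 GrnKO animals held for 3.28% of tested genes. Gpr34 had a mean of 875 CPM, and the share among genes averaging at least 100 CPM is not given for this count. Over both genotypes the blocked log2 fold change was 0.38 (SE 0.0907, adjusted p = 0.0432 in edgeR), and that without the block was 0.35 (SE 0.132, adjusted p = 0.255). At least 10 of 12 animals in one direction, as for Gpr34 and P2ry13, was found for 4.69% of tested genes and 20.4% of genes averaging at least 100 CPM.

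The calls of P2ry12 and Gpr34 were less stable than those of P2rx4 and Entpd1. With any single animal left out of the blocked fit, P2rx4 and Entpd1 were called in 12 of 12 refits, P2ry12 in 4 of 12 and Gpr34 in 3 of 12, and between 2 and 4 of the 7 genes were called in each. The log2 fold change over these refits ran from 0.31 to 0.40 for P2ry12 and from 0.34 to 0.44 for Gpr34. Without animals 1, 8 and 9 it was 0.34 for P2ry12 (adjusted p = 0.140 in edgeR) and 0.34 for Gpr34 (adjusted p = 0.199). With the animal as a random block in limma-voom it was 0.34 for P2ry12 (adjusted p = 0.0640) and 0.36 for Gpr34 (adjusted p = 0.111). With scaling by library size alone, the blocked fit called 2 of the 7, P2rx4 (log2 fold change 0.54, adjusted p = 0.0391 in edgeR) and Entpd1 (0.51, adjusted p = 0.0321). That scaling moved the median of all tested genes from -0.04 to -0.18 in the fit without the block. The median of genes averaging at least 100 CPM moved from 0.14 (75.8% of them positive) to -0.0017 (49.6% positive). The main scaling thus left most such genes higher in the high bin. The direction of all 7 genes over both genotypes was kept under it.

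**Figure D2:**
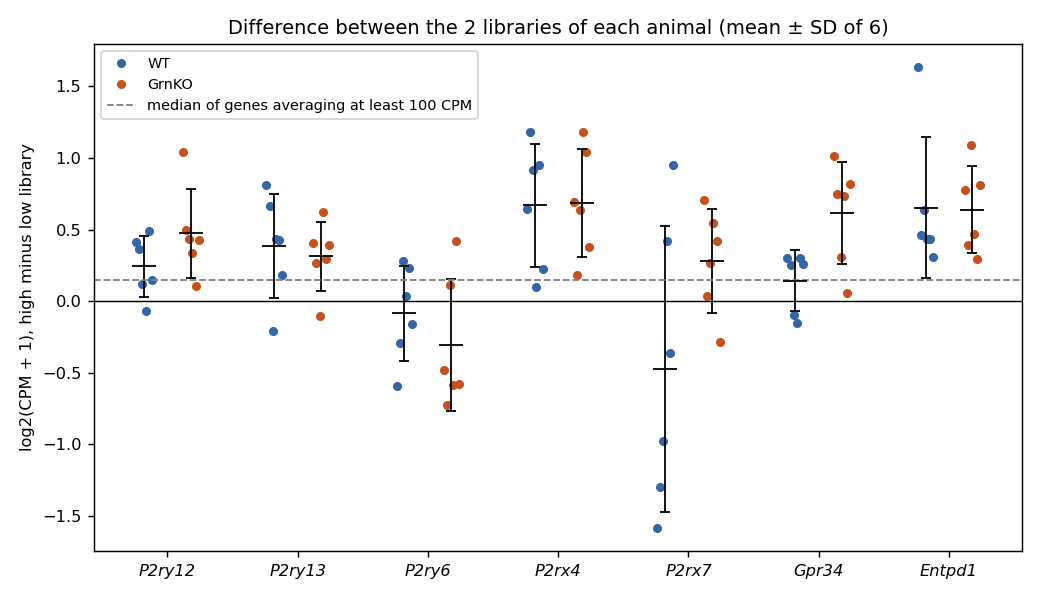
Difference between the high and the low library of each animal on the log2(CPM + 1) scale for the 7 genes, with WT and GrnKO animals side by side, the mean ± SD of 6 animals in black, and a dashed line at 0.15, the blocked median of genes averaging at least 100 CPM. P2rx4 and Entpd1 lie above 0 in every animal of both genotypes, and P2rx7 spans -1.58 to 0.95.

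P2ry6 and P2rx7 showed no such rise. P2ry6, the UDP receptor, had medians of 131 CPM in WT low (63.6 to 163), 136 CPM in WT high (41.8 to 158), 121 CPM in GrnKO low (85.2 to 155) and 91.0 CPM in GrnKO high (79.9 to 114). The groups overlapped, and the high library was the higher one in 5 of 12 animals. The blocked log2 fold change was -0.20 (adjusted p = 0.629 in edgeR). By sex label, the high library was higher in 4 of 6 animals labelled male and 1 of 6 labelled female, a split that was not tested. P2rx7, the high-threshold ATP channel, had medians of 109 CPM in WT low (61.5 to 129), 72.3 CPM in WT high (37.3 to 120.0), 59.1 CPM in GrnKO low (33.6 to 102) and 65.1 CPM in GrnKO high (46.99 to 104). The high library was the lower one in 4 of 6 WT animals and the higher one in 5 of 6 GrnKO animals. The blocked log2 fold change over both genotypes was -0.10 (adjusted p = 0.924 in edgeR), and its sign turned without WT animal 1.

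Because a ratio of 2 genes within a library does not depend on scaling, the 21 pairs of the 7 genes were also compared. The counts of animals used log2(CPM + 1), in which the scaling cancels only nearly. The ratio of P2rx4 to P2ry6 had a median of 0.685 in WT low (0.463 to 1.05) and 1.16 in WT high (0.869 to 1.49). In GrnKO the median was 0.865 in the low bin (0.516 to 1.33) and 1.81 in the high bin (1.39 to 2.00), with no overlap between the GrnKO bins. Of the 21 pairs this was the 1 pair that moved one way in 12 of 12 animals, and it is singled out for that. P2rx4 by itself was also higher in 12 of 12 animals. How often pairs of other genes move in this way, or have GrnKO bins that do not overlap, was not counted. P2ry6 relative to Entpd1 was lower in the high library of 11 of 12 animals. By contrast, P2ry12 relative to P2ry13 was higher in 6 of 12 animals, with a mean log2 change of 0.01 ± 0.37 (SD, n = 12).

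**Figure D3:**
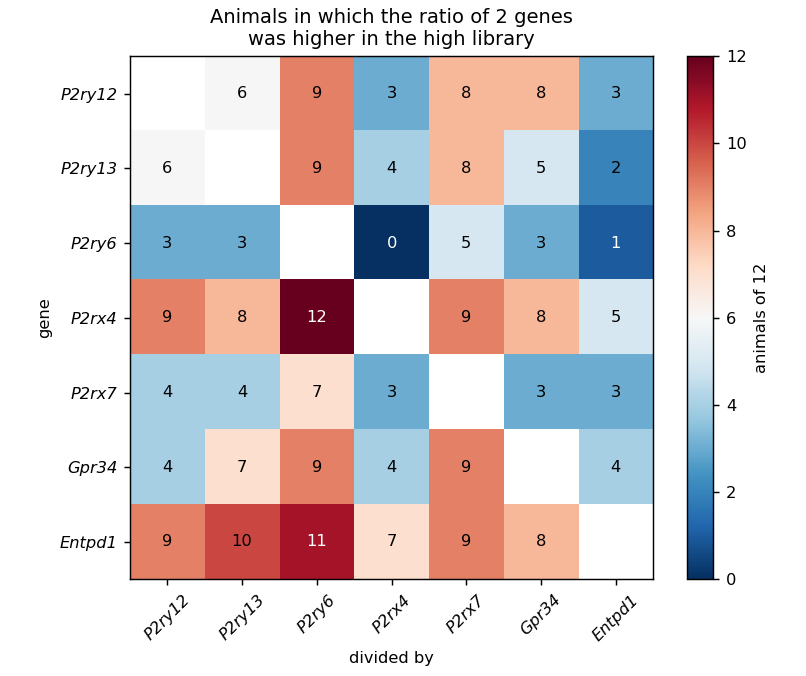
Number of animals, of 12, in which the ratio of the row gene to the column gene was higher in the high than in the low library, with colours from 0 (blue) to 12 (red). The extreme cell is P2rx4 over P2ry6 with 12 of 12, and the ratio of P2ry12 to P2ry13 stands at 6 of 12.

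Markers of other cells moved with the bins. The sum of 7 neutrophil markers ranged from 1644 to 22061 CPM in WT low and from 14.5 to 2818 CPM in WT high, and from 3790 to 31771 CPM in GrnKO low and 26.0 to 3511 CPM in GrnKO high. It was lower in the high library of 11 of 12 animals. The sum of 6 monocyte markers was lower in the high library of 12 of 12 animals (271 to 1460 CPM in WT low, 3.55 to 74.8 CPM in WT high, 347 to 1901 CPM in GrnKO low, 5.30 to 144 CPM in GrnKO high). The sum of the 11 listed T and NK cell markers, 10 of them tested, was also lower in 12 of 12 animals. It ranged from 95.3 to 593 CPM in WT low and 73.9 to 170 CPM in WT high. In GrnKO it ranged from 418 to 1092 CPM in the low bin and 67.6 to 274 CPM in the high bin. Ncr1 was at 0 in all 6 WT high libraries. Each sum given here covers all listed markers, tested or not. Markers of border-associated macrophages, which surround vessels and meninges, summed to more in the high library in 6 of 6 WT and 4 of 6 GrnKO animals (154 to 256 CPM in WT low, 194 to 751 CPM in WT high, 82.6 to 190.3 CPM in GrnKO low, 87.6 to 414 CPM in GrnKO high). Red blood cell markers summed to 4.68 to 37593 CPM, with more in the high library in 6 of 6 WT and 0 of 6 GrnKO animals. Over the 12 animals pooled, the other sums did not move one way. The high library had more B cell markers (189 to 9082 CPM) in 5 of 12 animals. It had more choroid plexus or astrocyte markers (189 to 2353 CPM for the latter) in 6 of 12. Endothelial (10.3 to 1039 CPM) and platelet markers (1.02 to 58.1 CPM, 2 of 7 tested) had more in 4 of 12. Oligodendrocyte (67.2 to 2866 CPM) and neuron markers (0.453 to 104 CPM) had more in 3 of 12. Split by genotype, the oligodendrocyte sum rose from low to high in 3 of 6 WT but 0 of 6 GrnKO animals. B cell sums rose in 4 of 6 WT and 1 of 6 GrnKO animals, and endothelial sums in 3 and 1. Choroid plexus sums rose in 4 and 2, neuron sums in 2 and 1, astrocyte sums in 3 and 3, and platelet sums in 2 and 2. The part of these cells in the results was not tested, and fewer cells of a type and less RNA per cell cannot be told apart in these libraries.

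The summed level of 12 microglial markers that include none of the 7 genes was itself higher in the high library of 12 of 12 animals, by a mean of 0.35 ± 0.15 on the log2 scale (SD, n = 12). It ranged from 12037 to 27646 CPM in WT low, 15836 to 34817 CPM in WT high, 18952 to 23038 CPM in GrnKO low and 26276 to 33265 CPM in GrnKO high. In the blocked fit 3 of the 12 markers were called, all higher: Trem2 (log2 fold change 0.62), Aif1 (0.58) and Fcrls (0.35). Cx3cr1 stood at -0.02, Tmem119 at 0.14 and Csf1r at -0.11. Relative to the microglial sum, P2ry12 differed between bins by 0.01 ± 0.29 on the log2 scale and was higher in 5 of 12 animals. Gpr34 differed by 0.03 ± 0.32 (6 of 12 animals higher) and P2ry13 by 0.00 ± 0.25 (7 of 12). P2rx4 was higher relative to it by 0.33 ± 0.42 and Entpd1 by 0.30 ± 0.40, each in 9 of 12 animals, while P2ry6 was lower by this measure in 10 of 12 (mean -0.54 ± 0.52, SD, n = 12).

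**Figure D4:**
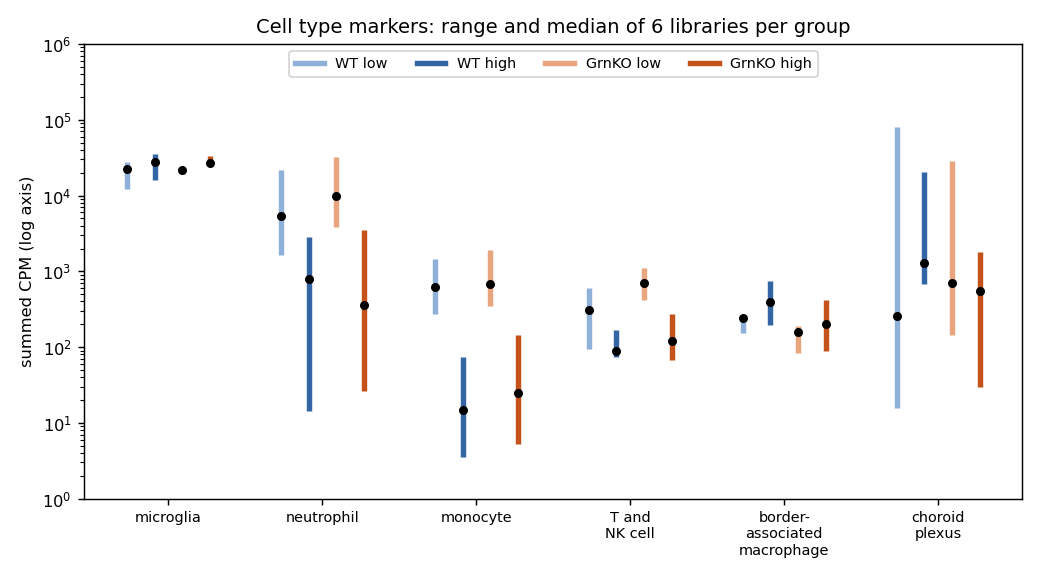
Summed CPM (log axis) of markers of 6 cell types in the 4 groups, each bar running from the lowest to the highest of 6 libraries and the point marking the median. Neutrophil and monocyte sums lie lower in both high groups, microglial sums lie slightly higher, and choroid plexus sums reach 80029 CPM in 1 WT low library.

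The sequence before the start of 5 of the 7 genes was matched in the RefSeq table (GRCm38.p6, 7 entries); Gpr34 and P2ry6 had no entry. It is shown for P2ry12, P2rx4 and Entpd1, which were called in the blocked fit, and for P2ry13, the neighbour of P2ry12. A pair of motifs was searched on both strands: AGGAAG, a form of the core bound by PU.1 and other ETS factors of macrophages, and CACGTG, the E-box core shared by the TFEB family of lysosomal regulators. Of 32851 promoter windows of the same length, 29.5% held AGGAAG and 6.02% held CACGTG. Each line gives the 250 bases before the annotated start, 5′ to 3′ on the gene's strand, with matches to either motif in capitals.
P2ry12, chr3:59262986-59263235, minus strand: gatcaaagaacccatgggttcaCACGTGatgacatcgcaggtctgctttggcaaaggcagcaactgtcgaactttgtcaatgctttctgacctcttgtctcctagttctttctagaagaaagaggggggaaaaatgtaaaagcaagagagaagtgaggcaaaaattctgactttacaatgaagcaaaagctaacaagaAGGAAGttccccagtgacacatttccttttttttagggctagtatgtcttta
P2ry13, chr3:59210883-59211132, minus strand: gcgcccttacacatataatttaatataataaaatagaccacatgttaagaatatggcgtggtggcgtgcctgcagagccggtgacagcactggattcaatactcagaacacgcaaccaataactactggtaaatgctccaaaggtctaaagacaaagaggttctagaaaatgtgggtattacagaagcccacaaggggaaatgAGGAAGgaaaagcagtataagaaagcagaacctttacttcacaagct
P2rx4, chr5:122707294-122707543, plus strand: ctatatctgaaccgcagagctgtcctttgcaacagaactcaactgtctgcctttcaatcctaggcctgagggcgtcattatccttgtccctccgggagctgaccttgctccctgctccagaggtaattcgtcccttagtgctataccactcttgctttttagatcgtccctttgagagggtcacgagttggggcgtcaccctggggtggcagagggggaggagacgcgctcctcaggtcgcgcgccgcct
Entpd1 first entry, chr19:40612116-40612365, plus strand: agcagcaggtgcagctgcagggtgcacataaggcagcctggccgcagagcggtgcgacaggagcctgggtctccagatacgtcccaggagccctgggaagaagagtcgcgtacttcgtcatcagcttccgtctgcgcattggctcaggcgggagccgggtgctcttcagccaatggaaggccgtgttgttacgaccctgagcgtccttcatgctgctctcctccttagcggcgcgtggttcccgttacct
Entpd1 second entry, chr19:40659520-40659769, plus strand: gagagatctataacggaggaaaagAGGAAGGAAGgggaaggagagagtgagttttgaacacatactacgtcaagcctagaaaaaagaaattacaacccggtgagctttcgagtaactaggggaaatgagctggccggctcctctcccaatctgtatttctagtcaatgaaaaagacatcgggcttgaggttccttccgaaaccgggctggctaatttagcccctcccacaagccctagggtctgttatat
P2ry12 held 1 match to each motif, P2ry13 held 1 AGGAAG, and the second Entpd1 entry held 2 overlapping AGGAAG matches. The windows of P2rx4 and of the first Entpd1 entry held neither. A match describes letters and is no evidence of binding. Of the 2 P2rx7 entries, 1 held 1 AGGAAG.

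The second question was whether loss of progranulin changed these genes. None of the 7 was called between genotypes in edgeR, in the low bin (0 of 7, against 0.326% of all tested genes), in the high bin (0 of 7, against 0.163%) or on the sum of both libraries of each animal (0 of 7, against 0.246%). At an unadjusted p under 0.05 the counts were 1 in the low bin, 0 in the high bin and 1 over both bins, against 10.2%, 6.30% and 8.46% of all tested genes. DESeq2 and limma-voom also called 0 of 7 in each of these comparisons. WT and GrnKO ranges overlapped for every one of the 7 genes in both bins, and groups that did not overlap were found for 1.16% (low bin) and 1.07% (high bin) of tested genes.

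P2rx7 had the largest genotype estimate among the 7. In the low bin 4 of 6 GrnKO libraries were below every WT library, and the share of all tested genes with this was not counted. There GrnKO averaged 58.6 ± 24.6 CPM against 101.3 ± 27.5 CPM in WT (SD, n = 6 each). The log2 fold change was -0.86 (SE 0.291), with an edgeR p of 0.00672 before and 0.232 after adjustment. In the high bin it was -0.11 (interval of 2 SE from -0.68 to 0.47), with 69.8 ± 23.5 CPM in GrnKO against 75.5 ± 30.9 CPM in WT (SD, n = 6 each). Over both bins the estimate was -0.44 (edgeR adjusted p = 0.564).

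The remaining low-bin estimates were smaller. P2ry12 averaged 1417 ± 260.2 CPM in GrnKO low and 1825 ± 540.0 CPM in WT low (SD, n = 6 each), a log2 fold change of -0.34 (edgeR adjusted p = 0.492). All 6 GrnKO low libraries were below the WT low median for P2ry12, P2rx7 and Entpd1. In the high bin all 6 were below the WT high median for P2ry6 and Entpd1, against 4 for P2ry12 and 3 for P2rx7. The share of all tested genes that meet this rule was not counted. Gpr34 stood at -0.39 (adjusted p = 0.489 in edgeR) and Entpd1 at -0.32 (adjusted p = 0.718 in edgeR). P2rx4 leaned the other way in both bins, by 0.26 in the low bin (interval -0.27 to 0.78) and 0.23 in the high bin (-0.29 to 0.76). For P2ry13 the intervals ran from -0.46 to 0.39 in the low bin and from -0.49 to 0.35 in the high bin, and for P2ry6 from -0.58 to 0.40 and from -0.87 to 0.11. The sign of the Gpr34 estimate in the high bin (0.03) turned to -0.06 with scaling by library size alone.

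**Figure D5:**
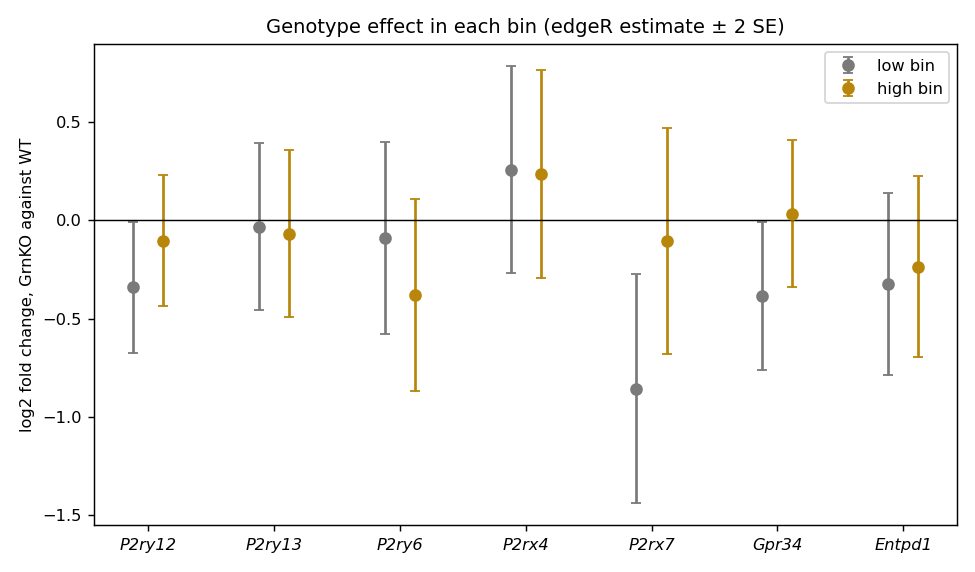
Log2 fold change of GrnKO against WT from the edgeR fit without the block for the 7 genes in the low and the high bin, with bars of 2 SE to each side and a line at 0. P2rx7 in the low bin, at -0.86, lies farthest from 0, and no estimate was called after adjustment.

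Whether the bins differed by a different amount in the 2 genotypes was tested as an interaction, in which edgeR called 0 of 7 genes and 0.0% of all tested genes, with and without the block. Without the block 0 of 7 and 5.24% of all tested genes had an unadjusted p under 0.05, and with it 1 of 7, Gpr34, and 5.38% did. DESeq2 called 71 genes and limma-voom called 1, none of them among the 7. Within single genotypes, edgeR called 0 of 7 in WT (0.248% of all tested genes) and 0 of 7 in GrnKO (0.206%), and with the block again 0 of 7 in each (0.454% and 0.341%). Unadjusted, 2 genes in WT and 4 in GrnKO had a p under 0.05 without the block (8.25% and 7.82% of all tested genes), and 3 and 5 with it (8.89% and 8.50%). P2rx4 stood at 0.68 in WT and 0.69 in GrnKO in the blocked fit, and Entpd1 at 0.65 and 0.64. Gpr34 stood at 0.14 in WT and 0.62 in GrnKO (adjusted p = 0.846 and adjusted p = 0.0502 in edgeR), and its blocked interaction was 0.47 (SE 0.181, adjusted p = 0.923). P2rx7 had the largest interaction estimate, 0.78 with the block (edgeR adjusted p = 0.948). The difference between genotypes in the response of Gpr34 and P2rx7 was therefore not established by these tests.

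The other genes of nucleotide and lysophospholipid signalling were read from lists made with earlier results of these data known. The 11 other P2ry and P2rx genes were listed by name, not by ligand. None of the 5 of them that were tested was called by edgeR in any of the 7 comparisons. For lipofuscin over both genotypes, 3 had an unadjusted edgeR p under 0.05 with and without the block. P2ry2 (adjusted p = 0.0812 in edgeR for lipofuscin over both genotypes, without the block) and P2rx1 (adjusted p = 0.313) had the smallest p. P2rx1, an ATP-gated channel of platelets and neutrophils, had medians of 5.70 and 5.65 CPM in WT low and GrnKO low, and 1.46 and 2.20 CPM in the high bins. None of the 3 tested of 4 adenosine receptors was called by edgeR (for lipofuscin over both genotypes, 0 had an unadjusted p under 0.05 without the block and 1, Adora2b, with it), and the adenosine receptor Adora3 had group medians of 39.1 to 59.4 CPM. None of the 8 tested of 9 genes of nucleotide release was called either, and 0 had such an unadjusted p with or without the block. Of 14 tested of 17 ectonucleotidase and adenosine turnover genes, 1 was lower in the high bin over both genotypes, with and without the block. This was Dpp4, a surface peptidase that binds adenosine deaminase (edgeR adjusted p = 0.0119 without the block), at medians of 0.921 CPM in WT low, 0.0270 in WT high, 3.05 in GrnKO low and 0.0186 in GrnKO high.

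Among 21 tested of 22 genes of receptor coupling, Rgs10 and Il1b were called. Rgs10, which shortens the signal of Gi-coupled receptors, rose in the high bin over both genotypes by 0.48 on the log2 scale with the block (SE 0.0926, adjusted p = 0.0103 in edgeR) and by 0.47 without it (adjusted p = 0.0324). Its medians were 1744 CPM in WT low, 2457 in WT high, 1940 in GrnKO low and 2378 in GrnKO high. Il1b, the cytokine released downstream of P2RX7, was lower in the high bin by a log2 fold change of -1.72 with the block (SE 0.402, adjusted p = 0.0383 in edgeR), against -1.60 (adjusted p = 0.0620) without it. Its medians were 112 and 71.9 CPM in WT low and GrnKO low, and 23.8 and 36.7 CPM in the high bins. Monocyte and T and NK cell sums were also lower there in 12 of 12 animals and neutrophil sums in 11 of 12, and their part in the levels of Il1b and Dpp4 was not tested.

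Of 8 tested of 15 further lysophospholipid receptors, 1 was called. Gpr132, a receptor on lymphocytes and myeloid cells, was lower in the high bin over both genotypes (adjusted p = 0.00235 in edgeR without and 0.0202 with the block) and, without the block, in GrnKO (adjusted p = 0.0287). Its medians were 3.56 CPM in WT low, 0.361 in WT high and 5.46 in GrnKO low, and 5 of 6 GrnKO high libraries were at 0, so no fold is given. Of 15 tested of 17 lysophospholipid turnover genes, Abhd12 was called, the lipase that degrades lysophosphatidylserine, the GPR34 ligand. On animal sums it was lower in GrnKO, with a log2 fold change of -1.61 (SE 0.242, adjusted p = 0.00838 in edgeR). In the low bin GrnKO was not the lower group, with medians of 26.7 CPM in WT and 37.2 CPM in GrnKO. It ranged from 199 to 511 CPM in WT high, above all other libraries, and from 3.46 to 78.1 CPM in WT low, 7.83 to 93.4 CPM in GrnKO low and 13.2 to 127 CPM in GrnKO high. Within the high bin its genotype estimate was -2.58 (edgeR adjusted p = 0.361), and the interaction was -3.52 (edgeR adjusted p = 0.819), so neither was called. Of 4 tested of 6 listed genes that overlap or adjoin the 7, none was called by edgeR, and 1, Gpr171, had an unadjusted p under 0.05 for lipofuscin over both genotypes with and without the block. Med12l lies on the opposite strand across P2ry12 and P2ry13 and Cask across Gpr34 in the GENCODE M21 annotation, and no source used here states the strand handling of the counts. Med12l had group medians of 8.32 to 17.8 CPM and Cask of 24.5 to 39.0 CPM. Other overlapping genes were not on the list. The microRNA gene Mir8115, which was not tested, shares 119 exon bases with P2rx7 on the same strand. Gm44545 lies on the opposite strand across P2ry6 with 0 shared exon bases. Gm16027, Gm8783 and AC166063.1 lie on the strand of Entpd1, also with 0 shared exon bases.

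Across the 24 libraries the 7 genes formed no single pattern. As a description with no test, on the log2(CPM + 1) scale P2ry12 correlated with P2ry13 at r = 0.79 and with Entpd1 at r = 0.75, whereas P2rx7 and Entpd1 stood at -0.01 and P2ry6 and Gpr34 at -0.15. Without the 4 choroid-rich libraries these were 0.72, 0.73, 0.16 and -0.22. The pair P2ry13 and P2rx4 had r = 0.77 over 24 libraries and 0.44 without the 4 choroid-rich libraries. The points share the scaling and the sorted cell mixture, and 2 of them come from each animal. Likeness to other genes was read over the 24 libraries among 6869 genes averaging at least 10 CPM, and r without the 4 choroid-rich libraries is given in brackets. P2ry12 was most like Siglech at 0.83 (0.86), Capza2 at 0.83 (0.79) and Rnase4 at 0.81 (0.77). P2ry13 was most like Siglech at 0.90 (0.83), Pld4 at 0.90 (0.73) and Cd81 at 0.90 (0.73). P2rx4 was most like Ctsa, a lysosomal carboxypeptidase, at 0.90 (0.79), Camk1 at 0.88 (0.83) and Cd84 at 0.87 (0.91). Entpd1 was most like Cd81 at 0.85 (0.83), Emc4 at 0.84 (0.67) and Rgs10 at 0.83 (0.76). Gpr34 stood nearest to Capza2 at 0.81 (0.82), Spcs2 at 0.79 (0.78) and Msmo1 at 0.79 (0.78). P2ry6 stood nearest to Slc25a45 at 0.85 (0.61), Clk3 at 0.83 (0.69) and Rabep2 at 0.82 (0.64). P2rx7 had the lowest such values, 0.73 (0.66) with Tubgcp3, 0.73 (0.67) with Cog2 and 0.72 (0.73) with Dbp.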

How the data were processed

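Per the labels' protocols, brains were dissociated with actinomycin D and anisomycin, and cDNA was made with a SMARTSeq v4 3' kit and Nextera XT. Single-end reads were sequenced without molecular identifiers, so counts are of reads and not of distinct molecules. The SE values come from fits that estimate the spread between libraries, and the SD values describe the spread between animals. The submitters' processing notes name STAR 2.7.9a, Salmon 1.10.1, edgeR 4.6.2, R 4.5.1 and GRCm39, with no role or order. The authors deposited estimated counts per gene with 2 significant digits, a rounding error of up to 5%. They also deposited normalized CPM (a signal scaled by library size and factor) and the library sizes and normalization factors (a ratio). The design assumed counts, so the estimated counts were rounded to whole numbers.

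Of 56980 genes, filterByExpr by group kept 14090 (13801 on animal sums). The model in edgeR 4.0.16 (TMM, glmQLFit with robust estimation, glmQLFTest, R 4.3.3) had 4 groups and the sex label, fitted to all 24 libraries; the common biological coefficient of variation was 1.08. Tests were 2-sided with Benjamini-Hochberg adjustment over all tested genes, in 7 contrasts. Levels are CPM with TMM-scaled library sizes. Differences within animals used a pseudocount of 1. The fitting was tested on simulated data. Alternatives used other scalings and filters, DESeq2 1.42.0, limma 3.58.1, no sex label, each animal left out, and the animal as a block.

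Both libraries of an animal come from the same mouse, so the animal numbers pair them by design. Over 1421 genes, both libraries of an animal deviated from their groups' averages with a correlation r from -0.09 to 0.64 (median 0.31; over 0.1 in 10 of 12 animals). In the limma-voom fit with the animal as a random block, the consensus correlation of the 2 libraries of an animal was 0.087. The labels do not say whether the animals shared litters or days.

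The 7 genes, the pathway and marker lists, the tests and the alternatives were chosen with earlier results of these data known. Genes named are the 7, Grn, called genes of each list (up to 3 in each direction), up to 2 of smallest p where a list is discussed without a call, overlapping genes, and the 3 genes most correlated with each of the 7; Adora2b, Adora3 and the microglial markers were picked with values in view. The leave-out of choroid-rich libraries and all variations of the blocked fit were added after seeing the data. Promoter coordinates are those of RefSeq GRCm38.p6; no GRCm39 coordinates are given. Plots used matplotlib 3.10.9 (Python 3.11.15).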

Additional observations from a re-analysis of the deposited data

Results flagged for a closer look

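Of 28 sets of 6 libraries (7 genes in 4 groups), 1 held a library far from the rest. P2ry6 stood at 41.8 CPM in the high library of WT animal 1, the lowest of its group, and the gap to the next library exceeded Dixon's 95% critical share of the group's range. About 1 set in 20 is expected to do so by chance. The same library had 9.70% mitochondrial counts and 20547 CPM of choroid plexus markers, and the part of either in the level of P2ry6 was not tested.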

How the results depend on the processing

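Without the block, 0 of the 7 genes were called in all 7 comparisons. For lipofuscin over both genotypes, 3 were called with no filter on low counts, 2 with DESeq2, 1 with limma-voom, 4 with the replicate block as a fixed term in edgeR, 2 with the replicate block as a random term in limma-voom, and 2 without the 4 choroid-rich libraries. Leaving out each animal gave 0 to 2. For lipofuscin in GrnKO, leaving out each animal gave 0 to 1 and leaving out the choroid-rich libraries gave 1, Entpd1. In the other 5 comparisons every alternative run gave 0 of 7. The blocked count of 4 became 2 with library size alone and 1 (Entpd1) without animals 1, 8 and 9, and leaving out each animal gave 2 to 4; it was 5 with DESeq2. The replicate block changed no other call among the 7 genes. No called value reversed. The cause of these shifts was not tested. Over all tested genes, the count called for lipofuscin over both genotypes was 185 in the main fit, 503 with DESeq2 and 1040 with no filter; for the interaction it was 0, 71 and 329. The 7 genes had at least 520 counts in each library. These are reads without molecular identifiers, and counting error was not compared with the spread between animals.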
